A study of Mus musculus with 144 samples.

Results

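Active neural stem cells of the mouse subventricular zone were divided by whether they contained mRNA of Mki67 (ENSMUSG00000031004), the gene of the proliferation antigen Ki-67. The cells were single cells labelled aNSC, the usual short form of active neural stem cell. They were defined by their Mki67 value: 21 cells held at least 1 TPM (an abundance scaled for transcript length and to a fixed total per library) and 37 held less. These 58 cells were part of 131 single cells and 144 libraries in the series, all from cells sorted for the nuclear receptor Tlx. The 21 cells with Mki67 came from 5-week (17) and 7-week (4) mice, and the 37 cells without it from 5-week (15), 7-week (12) and 7-month (10) mice. All came from the same tissue and sort, with no treatment named. The labels give no strain, sex, genotype or animal. They do not say how a cell was called aNSC or qNSC (quiescent), so that label may itself rest on these RNA values.

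Ki-67 is a large protein that coats mitotic chromosomes. Its gene is transcribed in cycling cells, with mRNA accumulating through S, G2 and M phase and falling in G1 and in resting cells. In the adult subventricular zone, resting stem cells enter the cycle, and their activated and transit-amplifying progeny divide before they become neuroblasts. Many genes of late cell cycle phases are repressed in resting cells by the DREAM and MuvB complexes, which contact a short promoter element named CHR (cell cycle genes homology region). CCAAT boxes, bound by the factor NF-Y, often lie beside it. E2F sites are typical of genes that act at the entry into S phase.

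The promoters of Mki67 and of the 3 genes with the smallest p-values between the arms are shown here, because 3 of these 4 hold the elements of that gene class. The sequences are RefSeq's, in build GRCm38.p6, from 250 bases before to 50 bases after the first listed start, read 5′ to 3′ on the gene's strand. Capitals mark CHR (TTTGAA or TTCGAA) and CCAAT letters, on either strand. Mki67 lies on the minus strand at chr7:135716330-135716629, Cdk1 on the minus strand at chr10:69352863-69353162, Prc1 on the plus strand at chr7:80294201-80294500 and Mad2l1 on the plus strand at chr6:66534971-66535270.
Mki67: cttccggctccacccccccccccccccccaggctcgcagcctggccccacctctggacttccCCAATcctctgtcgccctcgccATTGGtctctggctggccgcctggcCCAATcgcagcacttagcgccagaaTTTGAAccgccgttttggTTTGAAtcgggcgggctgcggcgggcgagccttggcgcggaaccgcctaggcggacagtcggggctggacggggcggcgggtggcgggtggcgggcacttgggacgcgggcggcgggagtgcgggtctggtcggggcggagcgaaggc
Cdk1: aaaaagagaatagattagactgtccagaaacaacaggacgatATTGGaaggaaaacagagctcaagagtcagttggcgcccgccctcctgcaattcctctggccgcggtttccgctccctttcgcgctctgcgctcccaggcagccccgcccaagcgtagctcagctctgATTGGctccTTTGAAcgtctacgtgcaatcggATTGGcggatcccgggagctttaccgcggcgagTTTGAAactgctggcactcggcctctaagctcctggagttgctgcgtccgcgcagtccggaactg
Prc1: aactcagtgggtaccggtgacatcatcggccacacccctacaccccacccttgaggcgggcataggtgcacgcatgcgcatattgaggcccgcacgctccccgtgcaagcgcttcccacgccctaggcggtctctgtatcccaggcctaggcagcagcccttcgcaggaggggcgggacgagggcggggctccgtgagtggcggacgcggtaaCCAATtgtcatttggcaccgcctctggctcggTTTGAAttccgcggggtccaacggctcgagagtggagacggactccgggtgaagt
Mad2l1: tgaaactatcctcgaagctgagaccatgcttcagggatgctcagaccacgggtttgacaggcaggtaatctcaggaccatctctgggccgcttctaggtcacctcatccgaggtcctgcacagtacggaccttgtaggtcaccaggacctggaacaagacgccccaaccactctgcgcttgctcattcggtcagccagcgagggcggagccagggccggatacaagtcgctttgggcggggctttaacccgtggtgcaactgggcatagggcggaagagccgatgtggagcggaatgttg

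The Mki67 window held 2 CHR and 3 CCAAT matches, with the CHR matches 116 and 98 bases before the start. Cdk1 held 2 CHR and 3 CCAAT matches, and its CHR letters began 71 and 15 bases before the start. Prc1 held 1 of each, with the CHR letters 5 bases before the first of its 2 listed starts. In the Mad2l1 window neither set of letters was found. Of the 101 mitotic genes listed for this comparison (Mki67 included), 84 had a promoter in the table. CHR letters were in 63.1% of them, against 19.4% of the first listed promoters of 27025 genes. CCAAT letters were in 67.9% against 37.9%, and both together in 51.2% against 7.70%. Among 46 promoters of S-phase genes, CHR letters were in 21.7%. E2F core letters (TTTCGCGC, TTTGGCGC, TTTCCCGC or TTTGCCGC, either strand) were in 30.4% of the S-phase promoters, 13.1% of the mitotic ones and 2.32% of all. Matches may overlap each other, and a match is only a match of letters.

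Mki67 values in the arm with Mki67 ran from 1.37 to 298 TPM, with a median of 74.4 and a mean of 79.2 ± 70.3 (SD, n = 21 cells). In the other arm the highest value was 0.47 TPM and the median 0.02. Of those 37 cells, 14 were at exactly 0 and 23 held a trace. The 3 cells nearest the threshold from below had 0.47, 0.28 and 0.20 TPM, and the 3 nearest from above had 1.37, 2.91 and 4.44. Few cells therefore lay near the dividing value. Mki67 reached 1 TPM in 17 of 32 active cells at 5 weeks (53.1%, exact binomial 95% interval 34.7 to 70.9%). At 7 weeks it did so in 4 of 16 cells (25%, interval 7.27 to 52.4%). At 7 months no cell of 10 did, which allows a share of up to 30%. The intervals cover counting error only, and age is therefore unevenly spread over the arms.

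**Figure D1:**
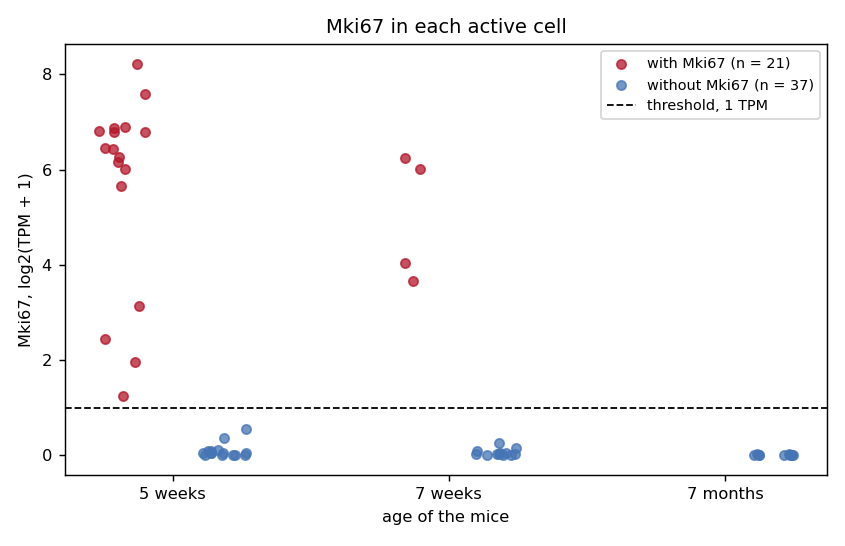
Mki67 as log2(TPM + 1) in each of the 58 active cells, by age of the mice and by arm, with the 1 TPM threshold as a dashed line. The arm with Mki67 holds 17 cells of 5 weeks and 4 of 7 weeks, and all 10 cells of 7 months lie in the other arm.

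The unit of comparison was the title set, the prefix shared by library titles such as A3_1. Cells are not replicates. Nothing in the labels tells if each title set is a mouse of its own, so p-values measure only the spread between these sets. Both arms were present in 5 sets. Title sets A3_1, A3_2 and A3_3 (5 weeks) held 5, 8 and 4 cells with Mki67 and 3, 5 and 7 without it. A2_1 and A2_2 (7 weeks) held 3 and 1 with it and 4 and 4 without it. All set differences for A2_2 thus rest on a single cell with Mki67. Shares of cells, TPM medians and ranges below use all 58 active cells unless 5 weeks is named. They include the 10 cells of 7 months and the 4 of A2_3, whose sets hold no cell with Mki67. Fitted differences use the paired sets only. The shares over all ages therefore hold neither age nor title set fixed. Cells with Mki67 also had more genes at 1 TPM or more: 2036 at the lowest, a median of 3019 and 3842 at the highest, against 1621, 2606 and 3450. The difference of set means was 360 ± 318 genes (SD, 5 sets), higher in 4 of 5 sets. An exact sign-flip permutation test gave a two-sided p of 0.125, where 5 sets cannot go below 0.0625. No value of TPM keeps its read count, so the depth of each cell is unknown.

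In the comparison of all ages, 0 of 4596 tested genes passed an adjusted p of 0.05 in limma with Benjamini-Hochberg adjustment in either direction (0% of tested genes higher and 0% lower). At an unadjusted p under 0.05 there were 418 genes (9.10%). The smallest adjusted p was 0.0666, shared by Prc1, Cdk1 and Mad2l1. Under 2 alternatives, quantile normalization and a filter at a mean log2 value of 3, the same 4 genes passed as higher: Cdk1, Pbk, Mad2l1 and Prc1. Without the block for title set 23 genes passed, all higher, of which 13 were mitotic genes of the lists below. Over all tested genes the median difference came to 0.32 on the log2(TPM + 1) scale. It was 0.01 after quantile normalization and also with the number of genes detected as a covariate, and differences below are to be read against that shift.

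The 4 lists of mitotic genes hold 100 members besides Mki67. In 95 of them the share of cells at 1 TPM or more was higher with Mki67, and in 5 it was lower (Mybl2, Kif18b, Cenpt, Oip5 and Pttg1). Over all 14286 genes seen in an active cell, 7880 had a higher share with Mki67 (55.2%) and 6320 a lower one. Among the 4596 tested genes, 67.1% had a higher share with Mki67. The median share over the 100 members was 57.1% of cells with Mki67 and 16.2% without it. With no filter on the mean, the median difference of the 100 was 2.58 and that of the 14286 genes 0.05. A difference above 0 in every title set was found for 47 of the 100, with 18 members under the filter, against 5.22% of all tested genes. None of the 100 was lower in every set, against 2.05% of all tested genes. Leaving out A2_2, 57 of the 100 were higher in the other 4 sets, against 13.5% of all tested genes. With genes detected as a covariate and no filter, the median of the 100 was 2.23 with 90 of them above 0, against 97 above 0 without the covariate. The limma adjusted p of the genes named below was then 0.693 or more. With Mki67 split above 0 TPM the median of the 100 was 1.31.

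Among the mitotic cyclins and kinases, 22 of 23 members had a higher share with Mki67. Cdk1, the kinase that drives entry into mitosis, was at 0, 597 and 2033 TPM (lowest, median, highest) with Mki67 and at 0, 0 and 735 TPM without it. It reached 1 TPM in 15 of 21 and 8 of 37 cells, so the arms overlapped. Within title sets A2_1, A2_2, A3_1, A3_2 and A3_3 its mean log2 value was higher by 4.52, 6.95, 5.22, 6.07 and 3.87. The fitted difference was 5.16 ± 0.68 (SE, 5 sets; limma adjusted p = 0.0666). Ccnb1, the cyclin partner of Cdk1, had a median of 571 TPM with Mki67 and 0.30 without it. It was present in 13 of 21 and 9 of 37 cells, with a difference of 5.13 ± 0.84 (limma adjusted p = 0.106). Ccnb2, the second B-type cyclin, was in 13 and 6 cells.

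Pbk, a mitotic protein kinase, was in all 21 cells with Mki67 and in 13 of the others. Its TPM was 1.77, 972 and 2264 with Mki67 and 0, 0.23 and 2427 without it, and the highest cell of all was one without Mki67. The set differences were 3.75, 4.12, 9.39, 5.37 and 6.51, and the fit gave 6.04 ± 0.86 (limma adjusted p = 0.0799). Bub1b, a kinase-like protein of the spindle checkpoint, stood in 13 of 21 cells with Mki67 and in 1 of 37 without it. Its difference was 4.57 ± 1.00 (limma adjusted p = 0.203) and ranged from 1.16 in A3_3 to 8.72 in A2_2. Plk1, which drives centrosome maturation and cytokinesis, was in 9 and 2 cells. Ccna2, the cyclin of S and G2 phase, was in 10 and 7 cells, with a difference of 1.37 ± 0.72 that was negative in A2_1 at -0.21. Cks1b and Cks2, small subunits that bind cyclin-dependent kinases, were in 17 and 17 cells with Mki67 and in 24 and 11 without it. Ccnf and Cdc25b were in 7 and 6 cells with Mki67 and in none of 37 without it, which allows a share of up to 8.11%.

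The spindle and cytokinesis list was led by Prc1, which bundles the microtubules of the central spindle. Prc1 was named for its p-value, after its values were seen. It was at 0, 359 and 1339 TPM with Mki67 and at 0, 0.19 and 1069 TPM without it, and present in 18 of 21 and 11 of 37 cells. The differences in A2_1, A2_2, A3_1, A3_2 and A3_3 were 4.13, 7.85, 5.82, 4.67 and 5.52, and the fit gave 5.26 ± 0.68 (limma adjusted p = 0.0666). Tacc3, which stabilizes spindle fibres, was in 16 and 13 cells. Racgap1, part of the centralspindlin complex, was in 19 and 18 cells and had a median of 176 against 0.96 TPM. Kif11, the motor that separates spindle poles, was in 14 and 5 cells with medians of 60.3 and 0.08 TPM, and a difference of 3.20 ± 0.66 (limma adjusted p = 0.196). The related microtubule-binding proteins Ckap2 and Ckap2l were in 17 and 16 cells with Mki67, and each in 5 without it. Of the list's 29 members, 28 had a higher share with Mki67 and 18 were higher in every title set.

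Mad2l1, the checkpoint protein that holds back anaphase until chromosomes are attached, had the largest difference in share of all tested genes. It was in 18 of 21 cells with Mki67 (85.7%) and in 6 of 37 without it (16.2%). Its TPM was 0, 545 and 1485 in the first arm and 0, 0 and 1070 in the second. Set differences of 3.78, 8.10, 7.80, 5.28 and 5.13 gave a fitted 5.68 ± 0.77 (limma adjusted p = 0.0666). Birc5 (survivin) and Aurkb form the chromosomal passenger complex. Birc5 was in 18 and 7 cells, with medians of 736 and 0.22 TPM and a difference of 5.32 ± 0.92 (limma adjusted p = 0.115). Aurkb was in 15 and 5 cells, with a difference of 4.27 ± 0.96 (limma adjusted p = 0.205).

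Spc25, a subunit of the Ndc80 kinetochore complex, was in 19 and 12 cells. Spc24, its binding partner, was in all 21 and in 33 of 37 cells at 1 TPM, but at 10 TPM in 57.1% and 32.4%. The 1 TPM level therefore set much of the Spc24 share. Bub3, another checkpoint protein, was in 16 and 14 cells. Ska3, which couples kinetochores to microtubules, was in 15 and 2 cells. It is in none of the 4 lists and was named for its difference in share. Its difference was -0.93 in A2_2 and 2.32 to 6.24 in the other 4 sets. Cenpe, a kinetochore motor, was in 8 and 1 cells. Cenpa, the centromeric histone, was in 10 and 8 cells, with a difference of -1.01 in A3_2 and 2.56 to 7.51 in the other sets. Of the 30 centromere and kinetochore members, 28 had a higher share with Mki67.

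**Figure D2:**
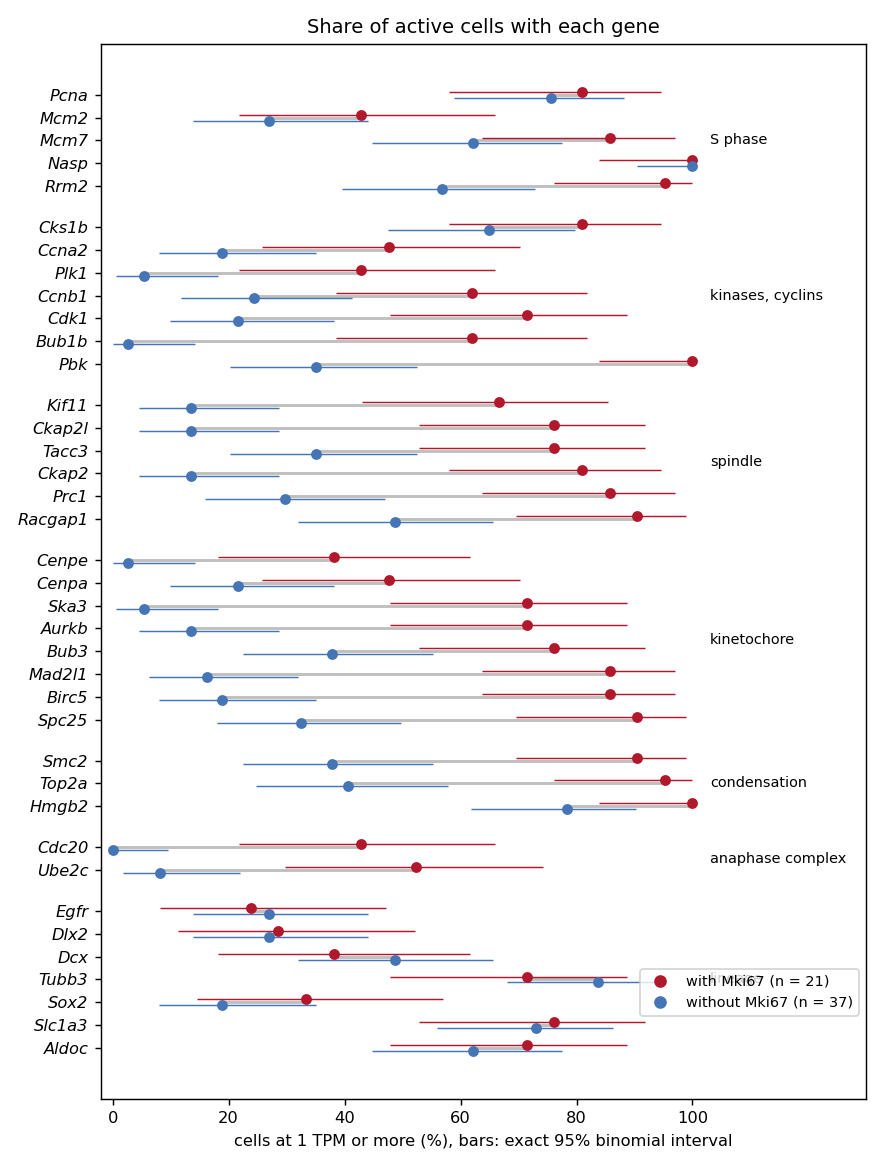
Share of active cells at 1 TPM or more for 38 genes grouped by role, with exact binomial 95% intervals, for 21 cells with and 37 cells without Mki67. Mad2l1 stands at 85.7% against 16.2%, while the lineage genes at the bottom lie close together in both arms.

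For chromosome condensation and cohesion, 17 of 18 members had a higher share with Mki67. Top2a, the topoisomerase that untangles sister chromatids, was at 0.07, 657 and 1959 TPM with Mki67 and at 0, 0.66 and 1311 TPM without it. It was in 20 and 15 cells. The set differences were 7.95, 0.83, 8.88, 5.79 and 4.57, with a fit of 6.03 ± 0.95 (limma adjusted p = 0.106). The small value was that of A2_2, with 1 cell with Mki67. Smc2, the core subunit of condensin, was in 19 and 14 cells, with medians of 440 and 0.24 TPM and a difference of 5.69 ± 0.87 (limma adjusted p = 0.103). Hmgb2, a DNA-bending protein of proliferating progenitors, was at 455, 1694 and 5093 TPM in the 21 cells with Mki67. Without Mki67 it was at 0, 270 and 3694 TPM and present in 29 of 37 cells. No cell with Mki67 lay below 455 TPM of Hmgb2, whereas 8 of the 37 others were below 1 TPM.

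The anaphase-promoting complex is the ubiquitin ligase that ends mitosis. Cdc20, its activator in mitosis, was in 9 of 21 cells with Mki67 and in none of 37 without it, which allows a share of up to 8.11%. Ube2c, its ubiquitin-conjugating enzyme, was in 11 and 3 cells. Set differences for Ube2c were 3.13, 10.35, 5.48, 3.55 and 2.59, with a fit of 4.14 ± 0.92 (limma adjusted p = 0.203). The core subunits Anapc11 and Anapc13 were in 17 and 14 cells with Mki67 and in 27 and 21 without it. The difference between these 4 genes was not tested. Outside the 4 lists, the beta-tubulin Tubb4b was in 16 and 4 cells, with a difference of 5.65 ± 0.91 (limma adjusted p = 0.106). Gas2l3, which links actin and microtubules in cytokinesis, was in 19 and 9 cells. The histone variant H2afx was in 13 and 3 cells.

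S-phase genes were found in many cells of both arms. Of 55 members of the lists for origin licensing, replication, nucleotide supply and chromatin assembly, 44 had a higher share with Mki67 and 10 a lower one. The 44 were 80% of the members, against 55.2% of all genes and 67.1% of tested genes. Their median share was 52.4% of cells with Mki67 and 37.8% without it. A difference above 0 in every set was found for 2 of the 55 (3.64%), with 6 members under the filter, against 5.22% of all tested genes. This count turned on A2_2 and its single cell with Mki67: in the other 4 sets, 11 of the 55 (20%) were higher, against 13.5% of all tested genes. With no filter, the median difference of the 55 was 1.06, against 0.05 over all genes. It was 0.11 with genes detected as a covariate, 0.35 with Mki67 split above 0 TPM, 0.46 without A3_1, 0.59 after quantile normalization and 0.64 with no weights. The size of the S-phase difference thus moved with the setting. No test of S-phase against mitotic lists was made.

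Pcna, the sliding clamp of replication, was in 17 of 21 and 28 of 37 cells, with medians of 965 and 933 TPM. Its set differences were -1.21, -9.62, -0.73, 1.06 and 1.12, and the fit gave -0.50 ± 1.13 (limma adjusted p = 0.955). Rrm2, the regulated subunit of ribonucleotide reductase, was in 20 and 21 cells, with medians of 1614 and 2.94 TPM. Its differences were 2.43, -3.36, 8.81, 4.16 and 6.29 and the fit 4.67 ± 1.22 (limma adjusted p = 0.300). The large subunit Rrm1 was in 20 cells of each arm, and its fit gave 3.70 ± 1.21. Of the replicative helicase, Mcm2 was in 9 and 10 cells, Mcm5 in 14 and 14, Mcm6 in 8 and 17 and Mcm7 in 18 and 23. Fitted differences were 1.19 ± 0.95 for Mcm2, 3.24 ± 0.86 for Mcm5 and 2.28 ± 1.01 for Mcm7. Nasp, a histone chaperone, was in all 58 cells, with medians of 256 and 25.7 TPM and a difference of 1.56 ± 0.88. Gmnn (geminin), which blocks relicensing of origins from S phase to mitosis, was in 13 and 10 cells with a difference of 3.80 ± 0.86 (limma adjusted p = 0.205). Rrm2, Mcm2, Mcm7, Nasp and Pcna all had their lowest value in A2_2.

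**Figure D3:**
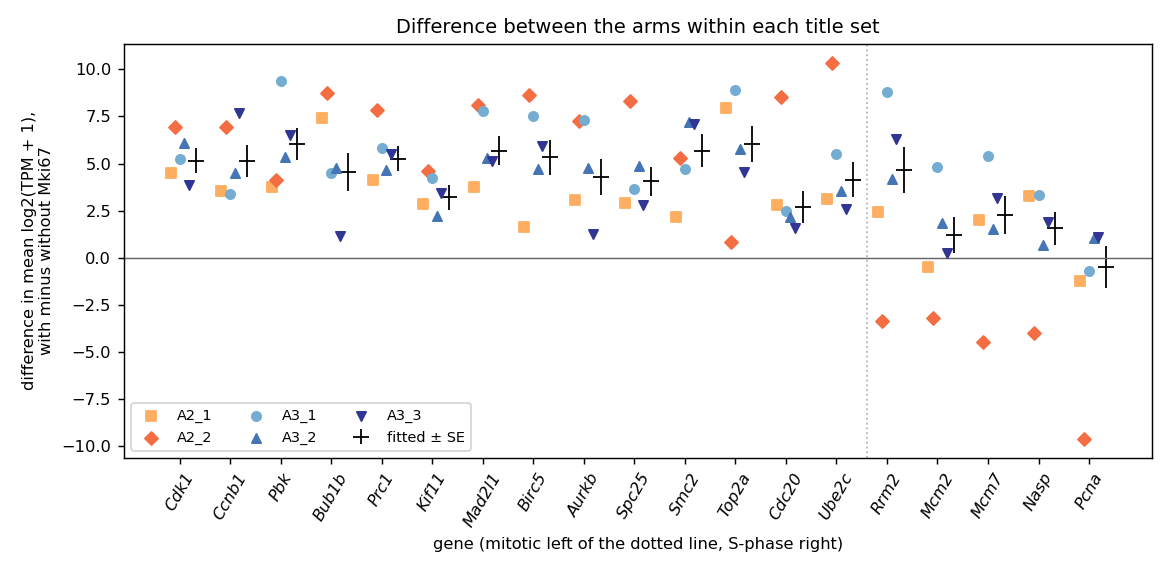
Difference in mean log2(TPM + 1), with minus without Mki67, in each of 5 title sets (coloured symbols) and as fitted with its SE (black), for 14 mitotic genes and 5 S-phase genes. The 14 mitotic genes shown are a selection and lie above 0 in every set. Cdc20 and Ube2c, among the 14, are of the anaphase-promoting complex list and not of the 100 listed mitotic genes. Of those 100 (82 tested), 47 lay above 0 in every set. Ccna2 and Cenpa, not shown, were below 0 in A2_1 and A3_2. All 5 S-phase genes shown lie below 0 in A2_2, which has 1 cell with Mki67.

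Cell by cell, the mean log2(TPM + 1) over the 100 mitotic genes was 1.85, 3.88 and 6.10 (lowest, median, highest) with Mki67 and 0.10, 0.81 and 4.62 without it. Of the 37 cells without Mki67, 28 lay below the lowest cell with Mki67 and 9 at or above it. In 8 cells with Mki67 the mean exceeded that of every cell without it. The mean over the 55 S-phase genes was 0.91, 4.02 and 6.13 with Mki67 and 0.50, 2.17 and 5.89 without it, and here the arms covered almost the same range.

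A panel of 8 core mitotic genes (Top2a, Cdk1, Ccna2, Ccnb1, Plk1, Birc5, Cdc20 and Aurkb) was counted in each cell, beside 8 core S-phase genes (Mcm2, Mcm3, Mcm5, Mcm6, Pcna, Rrm1, Rrm2 and Tyms). At least 4 core mitotic genes were present in 16 of 21 cells with Mki67 (76.2%, exact binomial 95% interval 52.8 to 91.8%). Without Mki67 this held for 4 of 37 cells (10.8%, interval 3.03 to 25.4%). No cell with Mki67 lacked all 8, and 14 cells without it did. At least 4 core S-phase genes were present in 19 of 21 cells (90.5%, interval 69.6 to 98.8%) and in 23 of 37 (62.2%, interval 44.8 to 77.5%). Of the 37 cells without Mki67, 19 had at least 4 S-phase genes but fewer than 4 mitotic ones, 14 had neither and 4 had both. Of the 21 cells with Mki67, 15 had both, 4 only the S-phase genes, 1 only the mitotic genes and 1 neither.

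At the threshold, the cell with 1.37 TPM of Mki67 held 2 core mitotic and 8 core S-phase genes. The cells with 2.91, 4.44 and 7.77 TPM held 6, 8 and 7 core mitotic genes at 1 TPM, and 2, 5 and 7 at 10 TPM. Their mitotic means were 2.67, 4.86 and 4.96, the first below and the others above the median of the arm. On the other side, the cell with 0.47 TPM held 7 core mitotic genes and a mitotic mean of 4.62, the highest of its arm. A cell of A3_2 with 0.06 TPM held 6 and had a mean of 4.16.

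**Figure D4:**
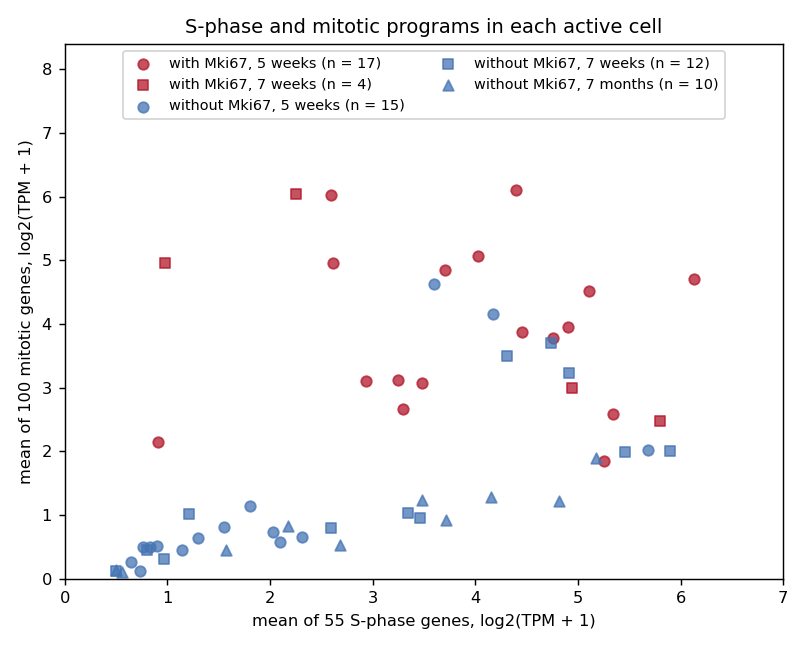
Mean log2(TPM + 1) of 55 S-phase genes (horizontal) and 100 mitotic genes (vertical) in each of 58 active cells, coloured by arm and shaped by age. Cells with Mki67 start at 1.85 on the vertical axis, while 28 of 37 cells without Mki67 lie below that value over a wide horizontal range.

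Within the 5-week cells alone (17 with and 15 without Mki67, 3 title sets), 0 of 4655 genes passed in either direction, with a smallest limma adjusted p of 0.262 and 383 genes at an unadjusted p under 0.05. Leaving out A3_2 left 2 sets, in which 21 genes passed as higher, 8 of them mitotic. Fitted differences were 5.11 ± 0.89 for Cdk1, 5.24 ± 0.84 for Prc1, 5.86 ± 0.92 for Mad2l1 and 6.76 ± 1.01 for Pbk. Each lay within 1 SE of its value over all ages, a fit that holds the same 5-week cells. Rrm2 was at 6.04 ± 1.06 and Pcna at 0.63 ± 0.87. With no filter, the median of the 100 mitotic genes was 2.63 against 0.11 over all genes, and 2.01 with genes detected as a covariate, where 83 were above 0 against 96 without it. Of the 100 mitotic genes (86 tested), 73 were higher in all 3 sets against 21.4% of all tested genes, and 0 were lower against 8.08%. Of the 55 S-phase genes (48 tested), 23 were higher in all 3 sets (41.8% of the 55) and 0 lower, against the same 21.4% and 8.08%. Their median with no filter was 1.73. It was 0.35 with genes detected as a covariate, 0.74 with Mki67 split above 0 TPM and 1.07 without A3_1. By cells, Mad2l1 was in 15 of 17 against 4 of 15, Cdk1 in 11 against 4, Birc5 in 15 against 3, Bub1b in 9 against 1 and Top2a in 16 against 6. Pcna was in 15 of 17 against 11 of 15. At least 4 core mitotic genes were in 13 of 17 cells (76.5%, exact binomial 95% interval 50.1 to 93.2%) and in 2 of 15 (13.3%, interval 1.66 to 40.5%). At least 4 core S-phase genes were in 16 of 17 cells and in 9 of 15. Id4 was in 0 of 17 and 2 of 15 cells.

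Among 15 genes of G1 and S entry, 12 had a higher share with Mki67 and 3 a lower one. This was 80% higher, against 55.2% of all genes and 67.1% of tested genes. With no filter, 10 of the 15 had a difference above 0 and the median was 0.12, against 0.05 over all genes. That median was -0.01 after quantile normalization, -0.20 with the log2 of the mean TPM and -0.83 with genes detected as a covariate. The 2 members with the highest means were present in nearly all cells of both arms. Ccnd2, the D-type cyclin of neural progenitors, was in 21 of 21 and 35 of 37 cells, with medians of 836 and 909 TPM. Its kinase Cdk4 was in 21 and 35 cells at 1578 and 1561 TPM. Cdk6, the related kinase, was in 17 and 23 cells. Ccne2, an E-type cyclin of S-phase entry, was in 11 cells of each arm, with a difference of 2.41 ± 0.83 (limma adjusted p = 0.421). Ccnd1 was in 2 and 1 cells. Cdkn1b (p27), an inhibitor of cyclin-dependent kinases, was in all 58 cells at medians of 95.2 and 84.7 TPM. Cdkn1a (p21) was in 4 and 3 cells. None of these passed the test, and Ccnd1 was under the filter.

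Genes of lineage stage were spread over both arms. Among 19 neuroblast genes, 11 had a higher and 8 a lower share with Mki67, and the median difference of those tested was 0.32, equal to that of all genes. Dcx, a microtubule protein of migrating neuroblasts, was in 8 of 21 and 18 of 37 cells. The neuronal tubulin Tubb3 was in 15 and 31 cells, with medians of 239 and 1017 TPM. Among 15 genes of activated stem and transit-amplifying cells, 13 had a higher share with Mki67 (86.7%, against 55.2% of all genes and 67.1% of tested genes). The median difference of those tested was 0.19. The receptor Egfr was in 5 and 10 cells. Dlx2, a factor of interneuron progenitors, was in 6 and 10 cells. Among 32 astroglial and quiescence genes 20 had a higher share (62.5%, against the same 55.2% and 67.1%) and 9 a lower one. The glutamate transporter Slc1a3 was in 16 and 27 cells and Aldoc, a glycolytic enzyme of astroglia, in 15 and 23. Id4, a repressor linked to stem cell quiescence and named after its values were seen, was in none of 21 cells with Mki67, which allows up to 14.3%, and in 10 of 37 without it. Tlx itself (Nr2e1) was in 12 and 21 cells, and the gfp row of the table in 12 and 18.

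Growth and housekeeping lists are given by their medians, beside 0.32 over all tested genes. The median difference was -0.0031 over 78 tested ribosomal protein genes, 0.62 over 73 of oxidative phosphorylation and 0.48 over 32 of the proteasome. It was 1.17 over 25 splicing factors and 1.47 over 16 histone variants and chromatin proteins. The histone variant H2afz was at 4960, 9025 and 15655 TPM with Mki67 and at 0.63, 5724 and 17729 TPM without it.

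**Figure D5:**
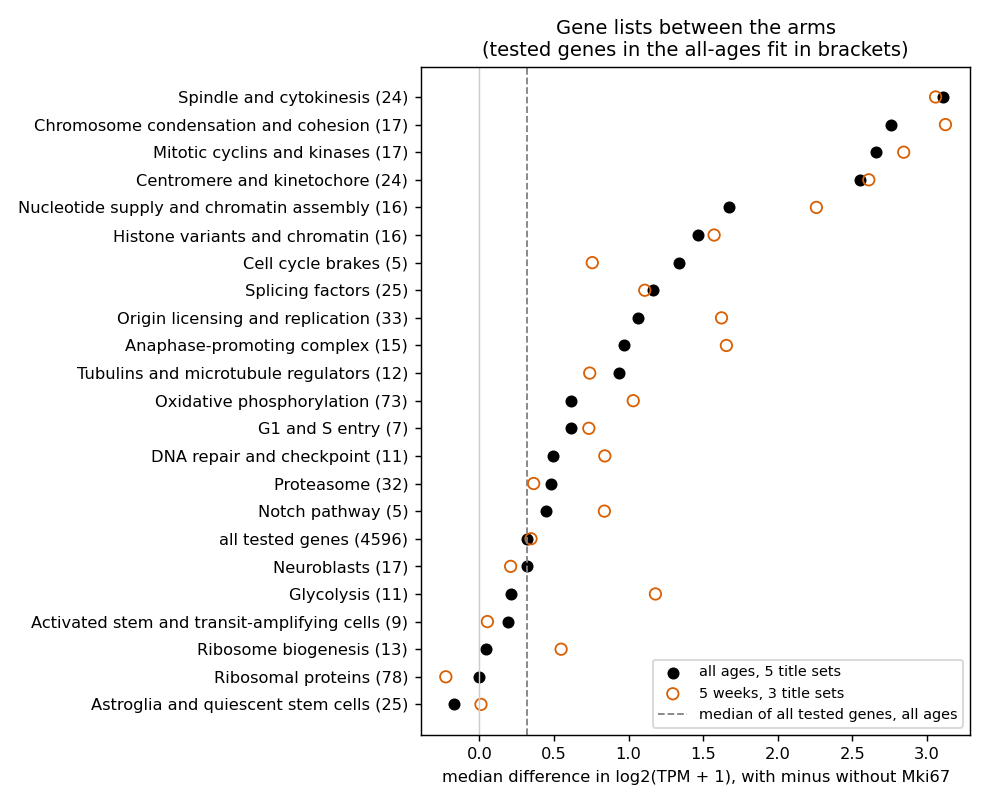
Median difference in log2(TPM + 1), with minus without Mki67, for gene lists with at least 5 tested members over all ages (filled) and at 5 weeks (open), with the median of all tested genes as a dashed line at 0.32. The 4 mitotic lists lie furthest to the right, and ribosomal and astroglial lists lie at or below 0 over all ages. Only genes past the filter on the mean enter, and a gene can pass it through the arm where it is high. Over all ages the median of the 4 mitotic lists together was 2.76 with the filter and 2.58 without it.

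Most markers of other cell types were found in no cell with Mki67. In those 21 cells, 12 of 12 endothelial and mural genes, 10 of 11 microglial, 7 of 7 oligodendrocyte precursor, 10 of 11 ependymal, 9 of 11 oligodendrocyte, 8 of 10 mature neuron and 4 of 6 erythroid genes reached 1 TPM in no cell. Many were absent from both arms. No active cell of either arm held 11 of the endothelial and mural, 9 of the microglial, 4 of the precursor and 7 of the ependymal genes. The same held for 5 mature neuron, 3 erythroid and 0 oligodendrocyte genes. Snap25, a synaptic protein of neurons, was the marker seen most: it was in 7 of 21 cells with Mki67, up to 601 TPM, and in 10 of 37 without it. The mean over the mature neuron list ran up to 0.92 with Mki67 and up to 1.29 without it. The erythroid mean ran up to 2.32 with Mki67 and up to 2.45 without it, mainly from the alpha-globin genes Hba-a1 and Hba-a2. Of the cells with Mki67, 1 cell of A3_1 (2.32) and 1 of A3_3 (1.63) held these transcripts, and their part in the differences was not tested. The defining genes Cldn5, Pecam1, C1qa and Pdgfra were below 1 TPM in every active cell. The mean over the oligodendrocyte list ran up to 0.81 with Mki67 and up to 10.1 without it. In 2 cells of the 7-month set A1_3, both without Mki67, that mean was 9.70 and 10.1, against 2.23 in the next cell. Those cells are in no paired set and so entered no fit. Without them, at least 4 core mitotic genes were in 4 of 35 cells (11.4%) and at least 4 core S-phase genes in 23 of 35 (65.7%).

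Mki67 was also found in cells labelled qNSC, which the rule did not use: 4 of 58, with a near-identical pair of libraries from A3_3 averaged as 1 cell. Their Mki67 values were 160, 34.4, 1.28 and 1.18 TPM, and they held 6, 8, 6 and 2 of the 8 core mitotic genes. The 54 other qNSC cells held a median of 1, and 6 of them held at least 4. At 10 TPM none of the 54 held any of the 8, so those counts rest on values between 1 and 10 TPM. The mean over the 100 mitotic genes was 4.92, 4.25, 3.65 and 0.78 in the 4 cells, against at most 1.5 in the others. The cell with 0.78 had an astroglial mean of 8.04, the other 3 of 1.06 to 1.45. The mean over the neuroblast list was 5.30, 6.46 and 4.66 in those 3 cells and 1.67 in the cell with 0.78. The 3 cells with high mitotic means thus held neuroblast rather than astroglial transcripts, although labelled qNSC. These counts are descriptions and carry no test.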

How the data were processed

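The authors deposited 1 table of TPM values for 144 libraries, used as deposited. Per the submitters' processing notes, RSEM 1.2.15 and the build mm9 were used, with the aligner, annotation and filters not given in the sources used here. TPM keeps no counts, so no count model was used and depth is unknown. Ensembl IDs were matched to symbols for 32897 of 37621 rows. RefSeq promoters are of GRCm38.p6, not mm9.

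Log2(TPM + 1) was averaged per title set and arm. limma 3.58.1 in R 4.3.3 was fitted to these means, weighted by number of cells and blocked by title set, with Benjamini-Hochberg adjustment over all genes with a mean of at least 1. Mki67 was left out of the tests. A gene counted as present at 1 TPM. Shares have exact binomial (Clopper-Pearson) 95% intervals, and a share of 0 has an upper limit set by 3 cells. No near-identical pair was found among active cells, where the highest correlation was 0.575. The procedure was run on simulated normal values, drawn gene by gene with no effect of title set. Such values lack the many zeros of these cells, so that run cannot tell how the fit performs on them.

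The members, the 30 gene lists and the comparison were chosen with earlier results of these data known. Named genes were those past the threshold (none), the 10 largest differences in share, the 2 members of each list with the highest mean, and a panel. Other genes named (among them Prc1, Smc2, Ccnb2, Cks2, Ccnf, Cdc25b, Mcm5, Mcm6, Rrm1, Gmnn, Cdk6, Ccne2, H2afx and Id4) were chosen after their values were seen. A gene of the panel is not reported here.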

Additional observations from a re-analysis of the deposited data

Results flagged for a closer look

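In title set A2_2, which has 1 cell with Mki67, the difference for Cdc20 was 8.51, far above the 1.58 to 2.82 of the other 4 sets. In the same set the difference for Pcna was -9.62, far below the others. Mcm2 had differences above 0 in the 3 sets of 5 weeks (4.81, 1.84 and 0.24) and below 0 in both sets of 7 weeks (-0.48 and -3.22). The means of these sets were 4.15 apart, and this difference was not tested. Among cells without Mki67, 1 cell of A2_2 had a mean over the mitotic genes of 3.23 and 1 cell of A3_3 a mean of 4.62, far above the other cells of their sets. In all, 70 groups of values were examined for a value far from the others, and chance alone marks about 1 group in 20. Of 14 single-cell libraries labelled as filtered out, which entered no comparison, 12 had at least 1 TPM of Mki67 (median 21.6 TPM, highest 81.4). Mki67 was also present in all 13 bulk pools, at 59.3 to 149 TPM.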

How the results depend on the processing

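Over all ages, the count of genes past the threshold was 0 in either direction. It was 4 higher with a filter at a mean of 3, 4 higher with quantile normalization and 23 higher with no replicate block. All other alternatives gave 0, leaving out each title set in turn included (0 to 0). At 5 weeks the count of higher genes ranged from 0 to 21 when each title set was left out, with 21 without A3_2, and was 0 under the other alternatives. The difference in genes detected was 281 to 451 when each set was left out. Title set numbers paired the arms only weakly by the data: the correlations of the deviations of both arms ran from 0.013 to 0.131, and 3 of 5 sets correlated best with themselves. The replicate block was part of the design. With the replicate block and genes detected as a covariate 0 genes passed, and Cdk1 was at 6.06, Mcm7 at -0.012 and Nasp at -0.67, while Cenpa at 5 weeks was at -1.27. Mcm7 was at -0.21 with the log2 of the mean TPM. Pcna was at 0.053 with no replicate block, 0.033 with Mki67 split at 10 TPM, and 0.29 in sets with at least 2 cells in each arm. Leaving out each set gave Pcna from -1.20 (without A3_2) to 0.29 (without A2_2). Mcm5 at 5 weeks was at -0.19 with Mki67 split above 0 TPM. The causes were not tested. Of 742 refitted differences for 40 genes over all ages, 712 kept their direction and side of the threshold, 23 passed it and 7 changed sign. Of 628 at 5 weeks the numbers were 619, 7 and 2. At 10 TPM, 72 of 80 shares stayed within the interval of the share at 1 TPM. Leaving out the oligodendrocyte-dominated cells, counting without A2_2, and combining no filter with the other alternatives were chosen after seeing the data. With 5 sets, 1 of them with a single cell in an arm, and no read counts, the precision of single genes is limited.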

Other observations

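Egr1, an immediate early gene induced by growth signals and by tissue handling, was in 11 of 21 cells with Mki67 and in 4 of 37 without it, while Fos, of the same class, was in 7 and 14. Among 12 immediate early genes 9 had a higher share with Mki67 and 3 a lower one. This was 75% higher, against 55.2% of all genes and 67.1% of tested genes. Only 3 of the 12 were tested over all ages, and none passed, as no tested gene of any kind did. The neuronal beta-tubulin Tubb2b was in 10 and 25 cells, Tubb2a in 6 and 18. Of 13 tubulins and microtubule regulators, 6 had a higher and 4 a lower share with Mki67. The higher members were 46.15% of that list, against the same 55.2% and 67.1%. In the Notch list Notch2, a receptor that maintains stem cell quiescence, was in 14 of 21 and 11 of 37 cells, and in 50 of 58 qNSC cells. The list as a whole did not share this: of its 14 members, 7 had a higher share with Mki67 and 4 a lower one. The other 3 were in no cell of either arm. The higher members were 50% of the list, against 55.2% of all genes and 67.1% of tested genes. Of the 17 genes of nucleotide supply and chromatin assembly, 14 had a higher share with Mki67 (82.4%, against 55.2% of all genes and 67.1% of tested genes). Among them Uhrf1, which reads hemimethylated DNA, was in 17 of 21 and 19 of 37 cells, and its partner, the maintenance methyltransferase Dnmt1, in 15 and 13. All of these are shares of cells at 1 TPM, described without a test.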
